A study of Mus musculus with 2 samples.

Results

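Transcription factors of the monocyte-to-macrophage transition were followed across the immune cells of YUMM3.3 melanomas. The 9 factors, Spi1, Cebpb, Klf4, Zeb2, Maf, Nr4a1, Bhlhe40, Id2 and Id3, were chosen by symbol, and all 9 were among the 12584 genes of the count matrix. YUMM3.3 is a mouse melanoma line that carries mutant Braf and lacks Cdkn2a. The NTT tumour grew from the targeted therapy-naive line, and the RTT tumour grew from its derivative that had acquired resistance to targeted therapy under a BRAF inhibitor. Both lines were injected under the skin of C57BL/6 mice, and live CD45+ leukocytes were sorted at day 12 and sequenced as 3′ single-cell libraries. The day is that of the series description, and the methods name another day, for tumours collected after T cell transfer. Each group was 1 tumour and 1 library, so the study has no replicate here and no test is given. The line, the mouse, the sort and the sequencing run of a group cannot be told apart. Fewer cells of a type and less RNA per cell cannot be told apart over all cells either, and levels are therefore also given within populations. The mice were 6 to 12 weeks of age, and their sex, matched between groups, is not given in the sources used here.

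A blood monocyte that enters a tumour changes its identity through factors that act in sequence. Spi1, which encodes PU.1, opens the enhancers shared by all myeloid cells. C/EBP factors and Klf4 act on monocyte and inflammatory genes, Zeb2 supports the monocyte and macrophage state, and Maf is known for tissue macrophage genes such as those of complement C1q. Nr4a1 and Bhlhe40 respond to signals reaching the cell, and Nr4a1 is needed for patrolling monocytes. Id2 and Id3 encode inhibitors that bind E proteins and keep them off DNA. Id2 is needed for cDC1 and natural killer cells, and Id3 is known from the resident macrophages of the liver.

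The NTT library held 2975 cells with a median of 5398 unique molecular identifiers (UMIs), which count molecules, and the RTT library held 4840 cells with a median of 8336. Levels are given as CPM, the UMIs of a gene scaled to 1000000 UMIs of the same cells, with 95% intervals that cover counting error only. The 3′ reads are not scaled by length, so levels are compared between cells and never between genes. The population names are those of the authors. Of the 16 names, 8 had at least 50 cells in each library, whereas Ctsk_Macro had 0 NTT cells and TAM_C1q had 17 NTT and 2001 RTT cells. The libraries shared 7 barcodes. Monocytes (Infl_Mono, Monocyte_1 and Monocyte_3) made up 54.3% of NTT and 4.11% of RTT cells, and macrophages made up 19.6% and 82.8%. Cells named NK_cells carried the T cell genes Cd3d (1610 CPM NTT, 1318 CPM RTT) and Cd8a (732 and 404 CPM) beside the NK receptor gene Ncr1 (82.1 and 32.5 CPM), and they are named here by the label only.

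The genes lie on 6 chromosomes in GRCm38 (mm10), and each is annotated as protein coding in the GENCODE annotation. Maf is at chr8:115682942-115707794 on the minus strand, Spi1 at chr2:91082390-91115756 on the plus strand, and Klf4 at chr4:55527143-55532466 on the minus strand. Nr4a1 is at chr15:101254269-101274795 (plus), Zeb2 at chr2:44983632-45117395 (minus) and Cebpb at chr2:167688915-167690418 (plus). Id2 is at chr12:25093799-25097140 (minus), Id3 at chr4:136143497-136145755 (plus) and Bhlhe40 at chr6:108660629-108666925 (plus). Cebpb overlaps Tmem189 on the opposite strand, and Maf, Zeb2 and Bhlhe40 overlap annotated antisense transcripts. Whether the counting used strand is not given in the sources used here.

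Over all cells, 4 of the 9 factors were at least 2-fold lower in RTT than in NTT, and 0 were 2-fold higher. Id3 had the lowest ratio, followed by Bhlhe40, Nr4a1 and Id2, and Maf had the highest. Among the 8220 genes that reached 500 UMIs in both libraries together, 9.6% were 2-fold lower and 8.18% were 2-fold higher. The median log2 ratio was -0.51 for the 9 factors and 0.10 for all genes tested. All 9 factors had the minimum count. Within monocytes, 2 of the 9 factors were 2-fold lower (Id2 and Bhlhe40) and 0 were higher, against 6.74% and 2.97% of the 5326 genes tested. Within macrophages, 1 was 2-fold lower (Id3) and 0 were higher, against 6.18% and 4.61% of 8888 genes. Within dendritic cells, 6 factors had the minimum of 200 UMIs. Klf4 was 2-fold higher there, Id3 was 2-fold lower on 61 and 19 UMIs, under that minimum, and 4.83% and 7.56% of 4407 genes were 2-fold higher and lower.

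The counts within monocytes and macrophages depended on how cells were weighted. With every cell thinned to 2000 UMIs, the count past 2-fold was 0 in monocytes and 3 in macrophages. The share of all genes past 2-fold after thinning is not given here, so these counts have no background.

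**Figure D1:**
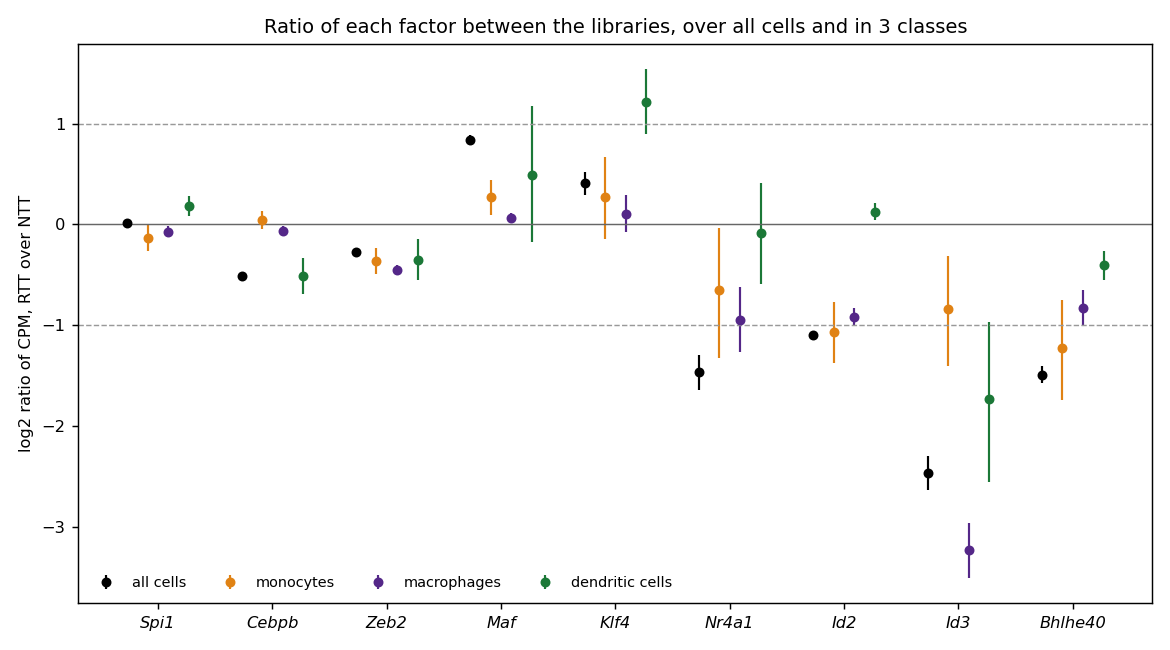
Log2 ratio of CPM, RTT over NTT, for each of the 9 factors over all cells (black) and within monocytes (orange), macrophages (purple) and dendritic cells (green). Bars are exact 95% intervals of the pair of counts, with 1 library per group, and dashed lines mark 2-fold; Id3 in macrophages lies lowest, at -3.23.

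Spi1, the shared myeloid factor, was nearly level between the tumours. It was at 476 CPM in NTT (466 to 485) and 481 CPM in RTT (475 to 488) over all cells, a log2 ratio of 0.02 (-0.02 to 0.05). Within macrophages Spi1 was at 511 and 487 CPM (log2 ratio -0.07, -0.13 to -0.02), and within monocytes at 542 and 494 CPM (-0.13, -0.26 to -0.01). Both intervals lay below 0, at fold sizes of 1.05 and 1.10, and the direction turned in macrophages when each cell was weighted equally (log2 ratio 0.064) and in monocytes without cells rich in C1qa (0.15). Spi1 was also spread evenly across myeloid populations. In NTT it ran from 265 CPM in DC3 to 612 CPM in TAM_H2Ab1, and in RTT from 321 CPM in DC3 to 606 CPM in Ctsk_Macro. Adjacent populations in this order overlapped in their intervals, except that Infl_Mono lay above Neutro and TAM_Spp1 lay above DC3 in NTT. The cells named NK_cells stood apart in both libraries, at 21.1 CPM in NTT and 67.8 CPM in RTT. The interval of the ratio lay above 0 in TAM_Spp1, where Spi1 was at 371 CPM in NTT and 503 CPM in RTT (log2 ratio 0.44, 0.28 to 0.60), and below 0 in TAM_cycling, at 530 and 443 CPM (-0.26, -0.36 to -0.16).

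Cebpb, the C/EBP factor of inflammatory and emergency myeloid responses, was at 787 CPM in NTT (774 to 799) and 551 CPM in RTT (544 to 558), 1.43-fold lower. Neutro cells held the highest NTT level at 4312 CPM, followed by TAM_Spp1 at 1995 CPM, Infl_Mono at 1389.8 CPM and Monocyte_1 at 867 CPM. In RTT the order was TAM_Spp1 at 1168 CPM, Infl_Mono at 1143 CPM and Monocyte_1 at 1010.3 CPM, each overlapping the next, and then TAM_C1q at 596 CPM. The dendritic populations, NK_cells and Ctsk_Macro lay at or below 250 CPM. Monocytes as a class did not differ clearly, at 1062 CPM in NTT and 1097 CPM in RTT (log2 ratio 0.05, -0.04 to 0.13). This class value joined opposite directions. Cebpb was higher in RTT in Monocyte_1 (log2 ratio 0.22, 0.09 to 0.35) and lower in Infl_Mono (-0.28, -0.40 to -0.16). Within populations the direction was mixed. Cebpb was lower in RTT in TAM_Spp1 (log2 ratio -0.77, -0.85 to -0.70) and cDC2 (-0.74, -0.95 to -0.53), and higher in TAM_cycling, at 229 CPM in NTT and 461 CPM in RTT (1.01, 0.87 to 1.15).

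Klf4, a zinc finger factor of the monocyte lineage, was at 40.6 CPM in NTT (37.9 to 43.6) and 53.9 CPM in RTT (51.8 to 56.1), 1.33-fold higher. In NTT its level depended strongly on the population. TAM_Spp1 (161 CPM) and Macro (134 CPM) were highest and overlapped, cDC2 (63.3 CPM) and Infl_Mono (60.4 CPM) followed, and TAM_cycling, cDC1, NK_cells, DC3 and TAM_H2Ab1 were all under 7 CPM. In RTT the 10 populations with at least 50 cells ran from 23.8 CPM in Ctsk_Macro to 117 CPM in NK_cells, with each pair of neighbours overlapping. Klf4 was higher in RTT in 5 of 8 populations by the interval. TAM_cycling went from 6.85 CPM (13 UMIs in 103 cells) to 44.0 CPM (536 UMIs in 947 cells), a log2 ratio of 2.68 (1.90 to 3.60), and cDC2 from 63.3 to 96.2 CPM (0.60, 0.27 to 0.94). TAM_Spp1 went the other way, from 161 to 112 CPM (-0.52, -0.78 to -0.26). With cells thinned to 1000 UMIs, 1.94% of NTT and 3.06% of RTT TAM_cycling cells had a Klf4 UMI (1.12 points, -3.83 to 3.04). In cDC2 the shares were 6.09% and 8.23% (2.14 points, -1.99 to 5.93). Both intervals included 0, and without thinning both lay above 0. The values in NK_cells, DC3 and cDC1 rested on few molecules. In RTT NK_cells, 38 of the 43 Klf4 UMIs came from 1 cell, in RTT DC3 1 cell held 8 of 15, and cDC1 had 4 UMIs in NTT and 17 in RTT.

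Zeb2, a zinc finger repressor, was at 493 CPM in NTT (483 to 503) and 407 CPM in RTT (401 to 413), a log2 ratio of -0.27 (-0.31 to -0.24). It separated macrophages and monocytes from dendritic cells in both libraries. In NTT it ran from 428 CPM in TAM_cycling to 928 CPM in Macro and 931 CPM in Neutro, against 217 CPM in cDC2, 73.5 CPM in DC3 and 27.5 CPM in cDC1. In RTT TAM_C1q (493 CPM), Infl_Mono (484 CPM), TAM_Spp1 (478 CPM) and Monocyte_1 (453 CPM) overlapped in order, Ctsk_Macro was at 240 CPM and cDC1 at 14.5 CPM. The factor was lower in RTT in all 3 classes, with log2 ratios of -0.45 in macrophages (-0.51 to -0.40), -0.36 in monocytes (-0.49 to -0.23) and -0.35 in dendritic cells (-0.55 to -0.15). Of the 8 populations, 5 had an interval below 0, among them TAM_Spp1, at 852 CPM in NTT and 478 CPM in RTT.

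Maf, the factor tied to tissue macrophage genes, was at 305 CPM in NTT (297 to 312) and 546 CPM in RTT (540 to 553), 1.79-fold higher. Within macrophages it was at 578 CPM in NTT and 603 CPM in RTT (log2 ratio 0.06, 0.01 to 0.11), and each cell weighted equally gave -0.27, and the direction within macrophages thus depended on the weighting. Different populations held the transcript in the 2 tumours. In NTT, Macro held 22% of the Maf UMIs, Monocyte_1 20% and TAM_H2Ab1 14.1%, whereas in RTT TAM_C1q held 58.8% and TAM_cycling 30.9%. Macro was the highest population in NTT at 1894 CPM (1793 to 1999) and lay above TAM_Spp1, the next at 553 CPM (509 to 601). The 17 NTT cells named TAM_C1q were at 1771 CPM (1555 to 2008), against 787 CPM (774 to 800.1) in the 2001 RTT cells of that name. The 26 RTT cells named Macro were at 522 CPM (419 to 643). Ctsk_Macro, the population with osteoclast genes, was low for a macrophage population, at 72.3 CPM. Monocytes lay between 215 and 355 CPM. Among dendritic cells the range over both libraries was 3.06 CPM in NTT cDC1 to 49.4 CPM in RTT DC3, and 1 cell held 7 of the 14 UMIs of the latter.

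Within populations Maf differed in both directions. In TAM_cycling it was at 252 CPM in NTT and 620.0 CPM in RTT (log2 ratio 1.30, 1.17 to 1.44), and in Infl_Mono at 262 and 355 CPM (0.44, 0.21 to 0.66). In TAM_Spp1 it was at 553 and 312 CPM (-0.82, -0.97 to -0.68). Infl_Mono cells also differed in macrophage markers. All 6 genes of that list (C1qa, C1qb, C1qc, Apoe, Mrc1 and Adgre1) were detected, and they summed to 7586 CPM in NTT and 31846 CPM in RTT Infl_Mono. Of the 94 RTT Infl_Mono cells, 45 had C1qa at 1000 CPM or more, and 145 of the 620 NTT cells did. In those C1qa-rich Infl_Mono cells Maf was at 211 CPM in NTT and 502 CPM in RTT, and in the other Infl_Mono cells at 280 CPM in NTT and 47.2 CPM in RTT (9 UMIs in 49 cells). Over all monocytes the log2 ratio of Maf was 0.27 (0.09 to 0.44) with the C1qa-rich cells and -0.86 without them. With those cells kept, the ratio also turned negative when each cell was weighted equally and when cells were thinned. Its direction thus depended both on the C1qa-rich cells and on the weighting, and the cause was not tested.

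**Figure D2:**
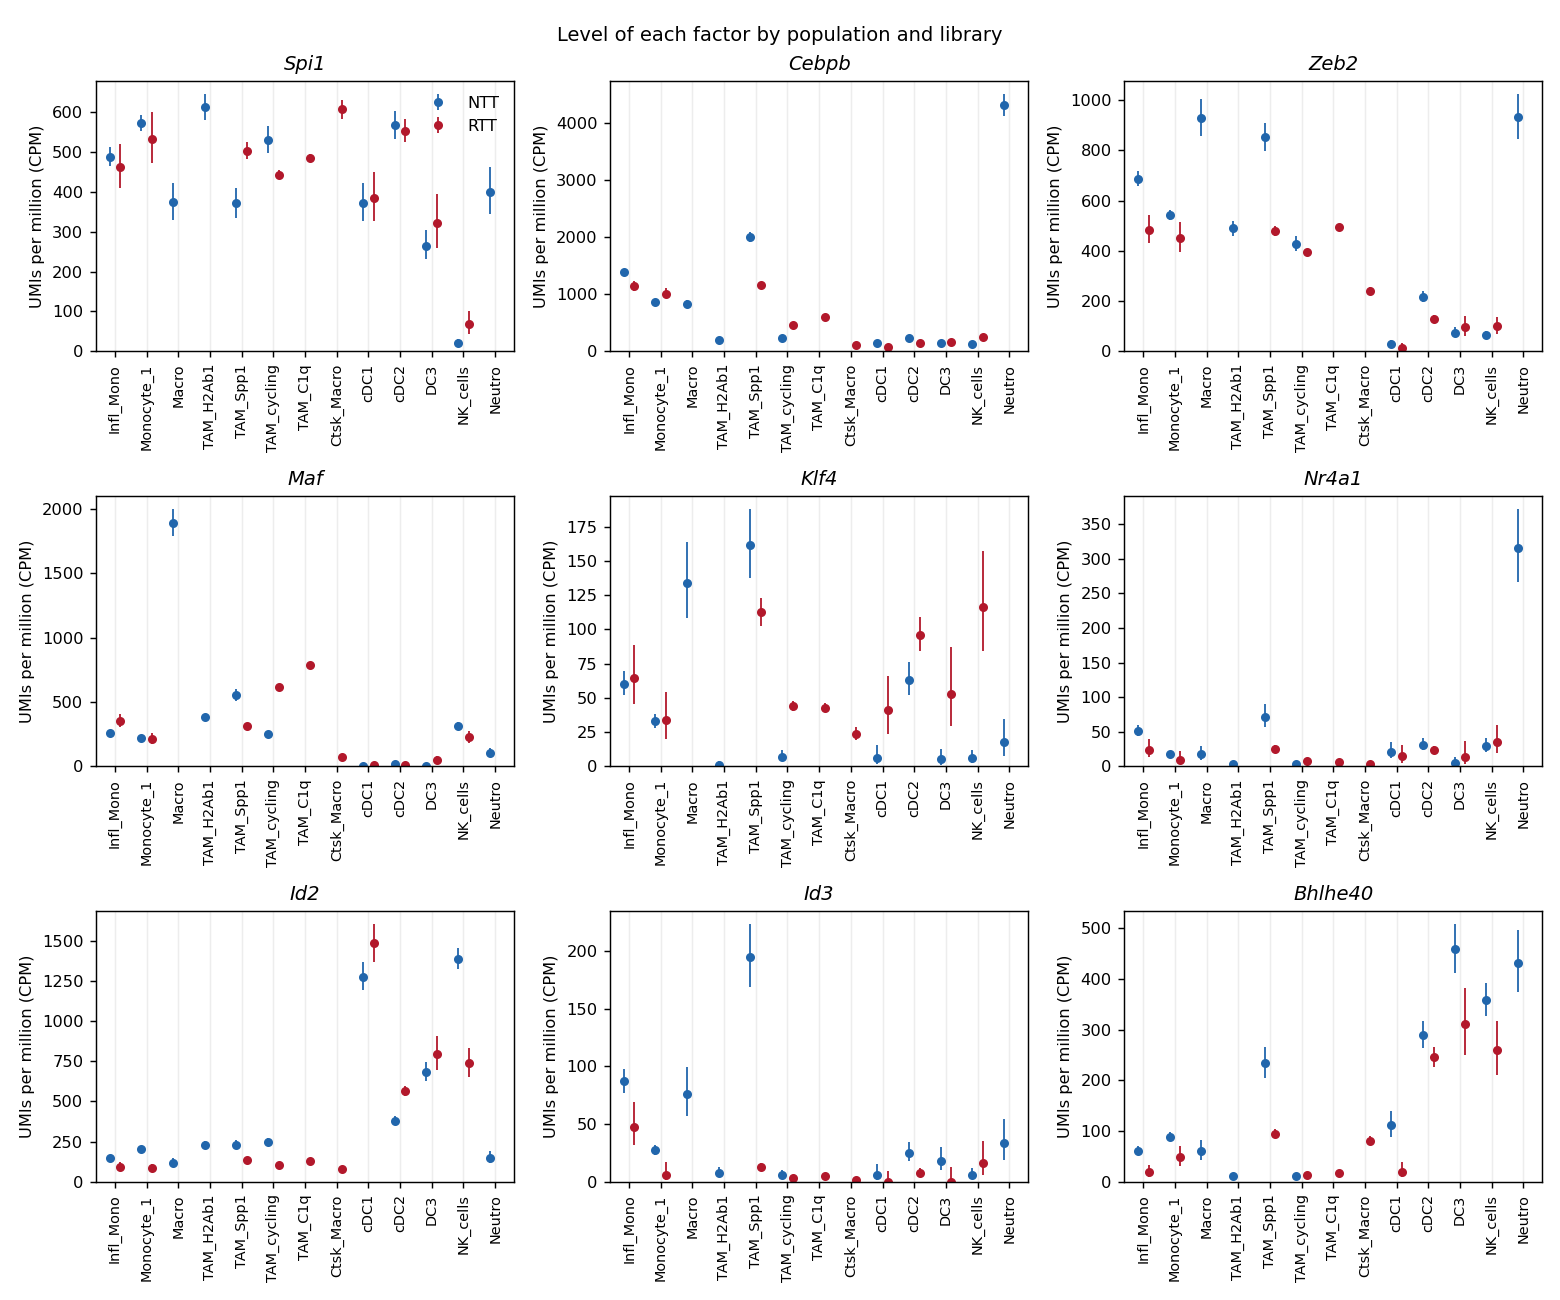
CPM of each factor by population for NTT (blue) and RTT (red), in the populations with at least 50 cells in the library; bars are exact Poisson 95% intervals and each panel has its own axis. Maf peaked in NTT Macro at 1894 CPM, and Id3 was at 194 CPM in NTT TAM_Spp1 but 12.6 CPM in the RTT cells of that name.

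Nr4a1, an orphan nuclear receptor induced within minutes of many signals, was at 32.2 CPM in NTT (29.7 to 34.8) and 11.6 CPM in RTT (10.7 to 12.7), 2.77-fold lower. Neutro cells were highest in NTT at 316 CPM (266 to 372), followed by TAM_Spp1 at 72.0 CPM and Infl_Mono at 51.5 CPM, and TAM_H2Ab1 was lowest at 3.17 CPM. In RTT each pair of neighbouring populations overlapped, from NK_cells at 35.3 CPM down to TAM_C1q at 6.63 CPM, and Ctsk_Macro lay below them at 3.20 CPM. Nr4a1 was lower in TAM_Spp1, at 72.0 CPM in NTT and 25.7 CPM in RTT (log2 ratio -1.49, -1.92 to -1.04), and in Infl_Mono, at 51.5 and 23.8 CPM (-1.12, -2.02 to -0.33). The Infl_Mono ratio rested on 162 NTT and 14 RTT UMIs. With cells thinned to 1000 UMIs, 3.06% of NTT and 3.19% of RTT Infl_Mono cells had an Nr4a1 UMI (0.13 points, -2.56 to 6.01). The interval of the ratio included 0 in the other 6 populations, where counts were low. Its relatives Nr4a3 (55.6 CPM NTT, 6.44 CPM RTT, log2 ratio -3.11) and Nr4a2 (36.5 and 12.9 CPM, -1.51) were lower over all cells too.

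Bhlhe40, a basic helix-loop-helix repressor known from cytokine control in myeloid and T cells, was at 133 CPM in NTT (128 to 139) and 47.5 CPM in RTT (45.5 to 49.6), 2.81-fold lower. In both libraries DC3 was highest, at 459 CPM in NTT and 311 CPM in RTT. NK_cells (359 and 260.4 CPM) and cDC2 (290 and 246 CPM) also ranked high, and TAM_cycling (11.1 and 13.9 CPM) was lowest or second to TAM_H2Ab1 in NTT. The interval of the ratio lay below 0 in 7 of 8 populations, and TAM_cycling was the exception (log2 ratio 0.33, -0.33 to 1.06). Shares of cells with a UMI, thinned to 1000 UMIs, gave another picture. The interval of their difference lay below 0 in Monocyte_1, NK_cells, TAM_Spp1 and also TAM_cycling (3.88% NTT, 0.95% RTT). It included 0 in Infl_Mono, cDC1, cDC2 and DC3. TAM_Spp1 was at 233 CPM in NTT and 94.5 CPM in RTT (-1.30, -1.54 to -1.07), and Infl_Mono at 60.4 and 18.7 CPM (-1.69, -2.72 to -0.82). Its closest relative, Bhlhe41, went the other way over all cells, from 4.28 to 25.6 CPM (log2 ratio 2.58).

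Id2, the inhibitor used by cDC1 and natural killer cells, was at 350.4 CPM in NTT (342 to 359) and 163 CPM in RTT (160 to 167), 2.14-fold lower. NK_cells (1391 CPM) and cDC1 (1278 CPM) were highest in NTT and overlapped, with DC3 (683 CPM) and cDC2 (379 CPM) next. In RTT cDC1 (1486 CPM) lay above DC3 (795 CPM) and NK_cells (740.5 CPM). Monocytes and macrophages lay far below in both libraries, from 117 to 248 CPM in NTT and from 77.7 to 135 CPM in RTT. Id2 was lower in RTT in monocytes, at 183 and 87.3 CPM (log2 ratio -1.07, -1.38 to -0.77), and in macrophages, at 221 and 117 CPM (-0.92, -1.01 to -0.83). In dendritic cells it was slightly higher, at 642 and 702 CPM (0.13, 0.04 to 0.21), with the largest ratio in cDC2 (0.57, 0.44 to 0.71).

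Id3 showed the lowest ratio of the 9. It was at 49.8 CPM in NTT (46.7 to 53.0) and 9.04 CPM in RTT (8.18 to 9.96), 5.51-fold lower. Within macrophages 282 UMIs in 582 NTT cells gave 47.3 CPM, and 198 UMIs in 4009 RTT cells gave 5.03 CPM, a log2 ratio of -3.23 (-3.50 to -2.97). This ratio lay at the 0.56 percentile of the genes tested in macrophages. TAM_Spp1 held 200 of the 282 NTT UMIs. There Id3 was at 194 CPM in NTT (168 to 223; 200 UMIs in 193 cells) and 12.6 CPM in RTT (9.50 to 16.4; 55 UMIs in 719 cells), 15.4-fold lower. No single cell held more than 11.5% of the NTT or 20% of the RTT UMIs. In Infl_Mono Id3 was at 87.2 and 47.5 CPM (log2 ratio -0.87, -1.49 to -0.31), in Monocyte_1 at 27.1 and 5.71 CPM with 3 RTT UMIs, and in cDC2 at 25.2 and 7.43 CPM. RTT DC3 and cDC1 had 0 Id3 UMIs, and 1 of the 135 NTT DC3 cells held 8 of the 14 UMIs there. The interval lay below 0 in 5 of 8 populations and above 0 in 0. Myofibrobl, a small population of 14 NTT and 24 RTT cells, held 18.2% of all NTT and 36.6% of all RTT Id3 UMIs. Id1, another inhibitor of the family, was at 13.7 CPM in NTT and 8.21 CPM in RTT (log2 ratio -0.73, -0.96 to -0.50).

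Of the 9 factors, 6 matched a RefSeq promoter table of GRCm38.p6. The 250 bases before the annotated start are shown for Nr4a1, which was 2-fold lower over all cells, and for Cebpb, which was lower by less, because they held the most matches to a signal-response motif among the windows. Capitals mark TGACG or its complement CGTCA, letters held by the cyclic AMP response element that many signal-induced genes carry. The Nr4a1 window is chr15:101266596-101266845 and the Cebpb window chr2:167688665-167688914, both on the plus strand. The Nr4a1 window lies inside the gene as annotated by GENCODE, before an internal start that RefSeq gives, and not before the first base of the locus above.
Nr4a1: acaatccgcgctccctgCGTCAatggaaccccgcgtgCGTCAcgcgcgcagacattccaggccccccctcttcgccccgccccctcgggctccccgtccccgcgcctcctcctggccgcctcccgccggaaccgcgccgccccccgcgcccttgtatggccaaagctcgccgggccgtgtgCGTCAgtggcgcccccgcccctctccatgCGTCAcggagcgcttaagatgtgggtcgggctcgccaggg
Cebpb: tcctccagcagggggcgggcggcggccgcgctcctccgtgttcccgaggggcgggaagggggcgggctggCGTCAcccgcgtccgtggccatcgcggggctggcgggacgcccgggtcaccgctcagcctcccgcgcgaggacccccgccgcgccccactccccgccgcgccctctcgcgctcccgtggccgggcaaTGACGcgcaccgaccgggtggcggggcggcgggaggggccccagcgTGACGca
The Nr4a1 window held 4 matches and the Cebpb window held 3. Of all 32851 windows of this length in the table, 17.77% held at least 1 match on either strand, 0.688% held at least 3 and 0.137% held at least 4. Id3 and Klf4 held 1, Id2 held 0, and the Zeb2 windows held 0 or 1. GAGGAA, a core sequence bound by PU.1, was found 2 times in the Id3 window (3.537% of windows hold at least 2), 1 time in each Zeb2 window and 0 times in the others. The 2 motifs did not overlap in these windows, and a match describes letters and not binding. The Nr4a1 and Cebpb windows were chosen for their matches, so the shares of all windows are no test of them. All windows were used without matching for base content.

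The 8 populations gave 72 pairs of a factor and a population, of which 43 had at least 200 UMIs over both libraries. Of the 43, 4 were 2-fold higher and 5 were 2-fold lower in RTT, and the interval lay above 0 in 10 and below 0 in 25. The share of all genes with an interval above or below 0 is not given here. Counts of intervals, also those per factor above, therefore have no background, and intervals narrow as UMIs increase. TAM_Spp1 had the most intervals below 0 of the 8 populations. Of its 9 ratios, 8 had an interval below 0 and Spi1 had an interval above 0. Shares of cells with a UMI, thinned to 1000 UMIs, differed less uniformly there. The interval of their difference lay below 0 for Maf, Nr4a1, Cebpb, Id2, Id3 and Bhlhe40. It included 0 for Zeb2 (39.9% NTT, 37.0% RTT), Klf4 (8.81% and 7.51%) and Spi1 (31.1% and 36.9%). Of the 8 factors with the minimum count there, 2 were 2-fold lower (Id3 and Bhlhe40) and 0 were higher, against 12.5% and 12.2% of the 3889 genes tested, and the median log2 ratio was -0.80 for the 8 factors and 0.10 for all genes tested. Nr4a1 had 74 UMIs in NTT and 112 in RTT, under that minimum. TAM_Spp1 cells of the libraries differed in another list too. Macrophage markers, with all 6 detected, summed to 7753 CPM in NTT and 20681 CPM in RTT. Their part in the result was not tested. In TAM_cycling 6 factors had the minimum count, of which 3 were 2-fold higher (Maf, Klf4 and Cebpb) and 1 was lower (Id2), against 4.78% and 4.34% of 6865 genes. In Infl_Mono 1 of the 8 factors with the minimum count was lower (Bhlhe40) and 0 were higher, where 9.78% of 2914 genes were lower and 5.15% higher. In Monocyte_1 1 of 6 was lower (Id2) and 0 were higher, where 9.87% of 4002 genes were lower and 2.4% higher. In cDC2 0 of 6 were past 2-fold in either direction, where 6.71% of 3325 genes were lower and 4.48% higher. Nr4a1 in Infl_Mono (162 NTT and 14 RTT UMIs) and Id3 in Monocyte_1 (147 and 3) and in cDC2 (43 and 19) also had ratios of at least 2-fold lower, on under 200 UMIs.

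In NK_cells 4 factors had the minimum count, of which 1 was 2-fold higher in RTT (Cebpb) and 0 were lower, against 2.11% of 1707 genes higher and 5.51% lower. Spi1, Klf4 and Id3 were also at ratios above 2-fold there, on 28 and 25, 8 and 43, and 8 and 6 UMIs, and the interval of Id3 included 0 (log2 ratio 1.43, -0.37 to 3.15). NK_cells of RTT also carried more macrophage marker transcripts, with all 6 genes detected in both libraries at a sum of 342 CPM in NTT and 3241 CPM in RTT. In the 4 RTT NK_cells with C1qa at 1000 CPM or more, Spi1 was at 375 CPM, against 27.6 CPM in the other 47. Cebpb was at 234 CPM in those 4 and 252 CPM in the other 47. In DC3 0 of the 3 factors with the minimum count were past 2-fold, against 2.61% of 844 genes higher and 5.45% lower. Maf, Klf4 and Nr4a1 were at ratios above 2-fold there with 4 to 15 UMIs in each library, and the macrophage markers summed to 782 and 4754 CPM. Without the 6 RTT DC3 cells that carry C1qa at that level, Klf4 was at 17.7 CPM in place of 53.0 CPM, and Maf at 44.4 CPM in place of 49.4 CPM. The part of the macrophage markers in these ratios was otherwise not tested. The composition scaling of edgeR shifted every DC3 ratio by -0.14 on the log2 scale and every Infl_Mono ratio by -0.12. In cDC1 0 of the 2 factors with the minimum count, Spi1 and Id2, were past 2-fold, against 1.91% of 889 genes higher and 4.61% lower. Bhlhe40 was at 112 CPM in NTT and 19.4 CPM in RTT there, on 73 and 8 UMIs.

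**Figure D3:**
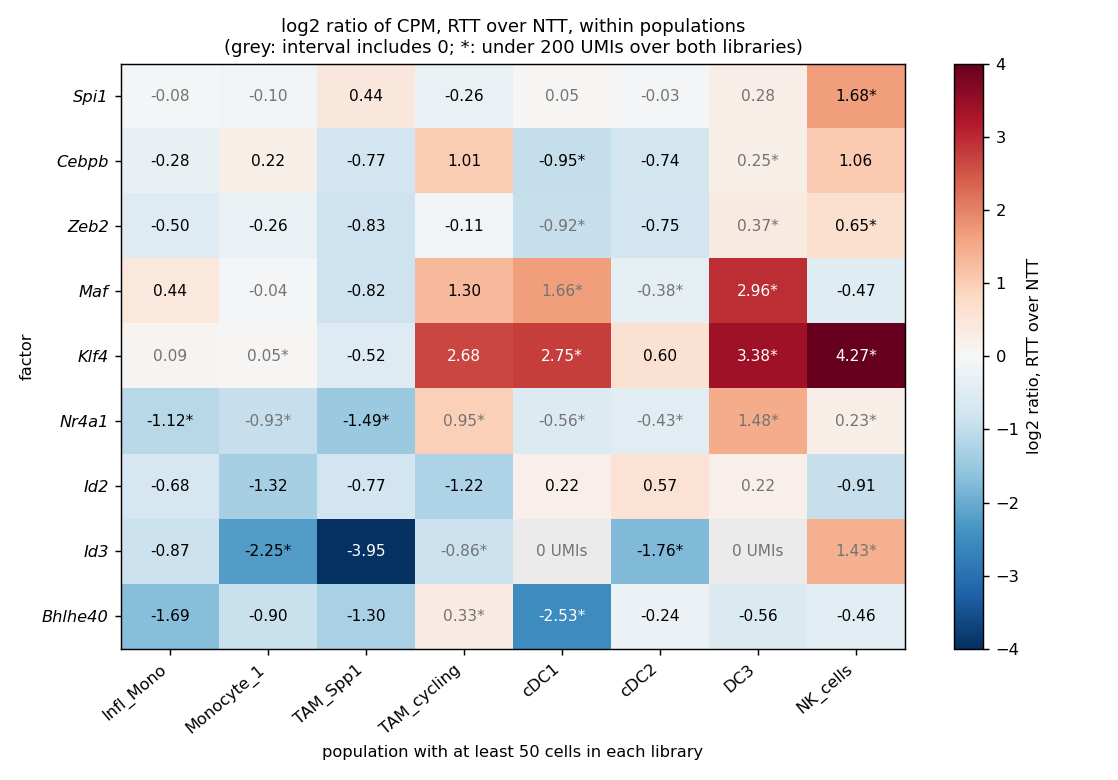
Log2 ratio of CPM, RTT over NTT, for each factor (rows) in the 8 populations with at least 50 cells in each library (columns), from blue (lower in RTT) to red (higher). Grey numbers have an interval that includes 0 or stand for 0 RTT UMIs, starred ones rest on under 200 UMIs, and Id3 in cDC1 and DC3 had 0 RTT UMIs; TAM_Spp1 is blue for all but Spi1 and reaches -3.95 for Id3.

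Because the tumours held different populations, the difference over all cells was split into a part from the populations' shares of the UMIs and a part from levels within populations, weighted by the mean of both libraries. For Maf the shares gave 413 CPM more in RTT and the levels 171 CPM less, and the sum was 242 CPM. For Zeb2 the shares gave 110 CPM more and the levels 195 CPM less. For Cebpb the shares gave -249 CPM and the levels 14.2 CPM, with a sum of -235 CPM. For Klf4 the levels gave 24.2 CPM and the shares -11.0 CPM. For Id3 levels gave 74.7% of the difference and shares 25.3%. Nr4a1 (46.2% from shares), Bhlhe40 (54.5%) and Id2 (61.8%) were divided more evenly. Ctsk_Macro had no NTT level and was given its RTT level in both libraries, and the NTT level of TAM_C1q came from 17 cells. Only Cebpb and Spi1 had a part whose sign changed with the weights. The levels gave 69.7 CPM for Cebpb with NTT weights and -41.3 CPM with RTT weights. For Spi1 the shares gave -19.7 and 23.7 CPM and the levels 25.4 and -18.0 CPM. The levels part of Maf was -326 and -16.2 CPM. With NTT and RTT weights, shares gave 33.8% and 58.7% of the Nr4a1 difference and 66.5% and 42.5% of the Bhlhe40 difference. Which part was larger thus depended on the weights for these factors. For Id2 shares gave 67.7% and 55.8%.

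**Figure D4:**
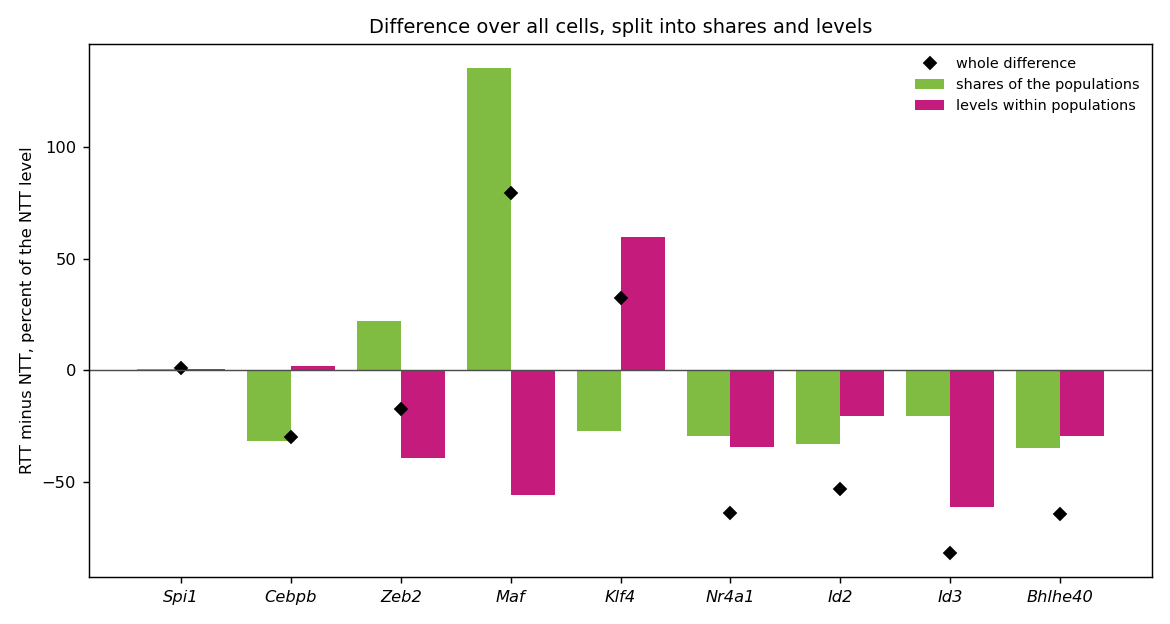
Difference RTT minus NTT over all cells, as percent of the NTT level of each factor, split into the part from shares of the populations (green bars) and the part from levels within populations (magenta bars), with diamonds for the whole difference. With the mean weights shown, shares and levels have opposite signs for Maf, Zeb2, Klf4 and Cebpb and the same sign for Spi1, Nr4a1, Id2, Id3 and Bhlhe40. The patterns of Cebpb and Spi1 depend on the weights, and so does which part is larger for Nr4a1 and Bhlhe40.

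The share of cells with a UMI was compared after each cell had been thinned to 2000 UMIs, which left out 107 NTT and 63 RTT cells. Cells with an Id3 UMI were 6.24% of NTT and 1.38% of RTT cells, a difference of -4.86 points (-5.85 to -3.95), and within TAM_Spp1 16.2% and 1.42% (-14.8 points, -20.7 to -10.1). Cells with Maf went from 27.4% to 45.5% (18.1 points, 15.9 to 20.2), and cells with Spi1 from 56.5% to 60.8% (4.32 points, 2.04 to 6.60). Bhlhe40 went from 19.8% to 9.32%, Id2 from 33.9% to 22.9%, Nr4a1 from 5.51% to 2.20% and Cebpb from 62.2% to 55.8%. Klf4 was found in 6.52% and 8.83%. For Zeb2, at 51.5% and 49.3%, the interval of the difference included 0 (-4.48 to 0.15 points). Without thinning, the shares were 43.9% and 66.8% for Maf and 80.9% and 92.1% for Spi1. As a background for cells that should lack PU.1, 4 of 164 NTT NK_cells (2.44%) had a Spi1 UMI after thinning, which left out 14, at a median depth of 5359 UMIs before it. In RTT thinning left 41 NK_cells, under the minimum of 50, and 3 of them had a Spi1 UMI, and RTT NK_cells hold the C1qa-rich cells named above, so they give no background.

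Over the 21 groups of a population in a library with at least 50 cells, the 9 factors formed different patterns. Zeb2 and Cebpb had a Pearson correlation of 0.81 on the scale log2(CPM + 10), Maf and Zeb2 of 0.74, and Zeb2 and Id2 of -0.87. These are descriptions, since the groups of a library share its depth and sort. Among genes that reached 500 UMIs, those most like each factor over the same groups were Sypl, Ocrl and Selenop for Maf (r = 0.94, 0.91 and 0.90), Fes, Btk and Ifngr2 for Spi1 (0.94, 0.93 and 0.91), and Itgam, Sdc4 and Hmox1 for Zeb2 (0.95, 0.94 and 0.94). Cebpb was most like Clec4d, Clec4e and Plaur (0.96, 0.96 and 0.94), Nr4a1 like Ccnl1, Tnfrsf23 and Tra2a (0.94, 0.93 and 0.91), and Id2 like Supt20, Nup210 and Cnn2 (0.93, 0.89 and 0.88). Bhlhe40 was most like Malt1, Nr4a3 and Stk24 (0.92, 0.88 and 0.87), Id3 like Dmkn, Tlr5 and Prtn3 (0.90, 0.89 and 0.89), and Klf4 like Adora2b (0.84). No other factor of the 9 was among these.

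Pairs of factors in the same cell were read within single populations of a library, over thinned cells, as a description. In RTT TAM_C1q, 62.3% of cells with a Maf UMI had a Zeb2 UMI, against 49.2% of cells without Maf, a difference of 13.1 points (8.57 to 17.6). Cebpb was found in 58.6% and 64.4% of the same cells (-5.74 points, -10.1 to -1.26). In RTT TAM_Spp1 the difference was 9.79 points for Zeb2 (1.78 to 17.5) and -8.75 points for Bhlhe40 (-13.3 to -3.45). In NTT Monocyte_1, 16% of cells with a Klf4 UMI and 3.37% of cells without had an Nr4a1 UMI (12.6 points, 4.84 to 25.2). The interval lay above 0 in 8 of 30 pairs in RTT TAM_C1q, 3 of 30 in RTT TAM_Spp1, 5 of 30 in NTT Monocyte_1 and 3 of 31 in NTT Infl_Mono, and below 0 in 2, 3, 0 and 0. Pairs of other genes were not read, so these counts have no background.

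Other factors and target genes of the pathway were read from lists. Of 26 other myeloid transcription factors, 25 were tested over all cells, with 2 higher and 5 lower by 2-fold and a median log2 ratio of -0.40. Mef2c had the highest ratio (59.6 CPM NTT, 194 CPM RTT, log2 ratio 1.71), then Mitf, the factor shared with osteoclasts and melanocytes (13.04 and 31.2 CPM, 1.26), and Nfatc1 (50.2 and 98.0 CPM, 0.97). Spic, a factor of splenic and liver macrophages, had the lowest ratio at -2.88 (9.52 and 1.30 CPM) but was under the minimum count, followed by Etv6 (-1.30) and Pparg (-1.27). In monocytes 1 of 20 was higher and 3 were lower. In macrophages 2 of 25 were higher and 2 were lower, with Pparg at 54.7 and 8.86 CPM (-2.62, -2.85 to -2.40) and Nr1h3, which encodes the oxysterol receptor LXRα, at 64.2 and 19.6 CPM (-1.71).

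Among the 17 relatives and partners of the factors, 1 was higher and 4 were lower over all cells, with a median of -0.03. Bhlhe41 had the highest ratio, then Cebpd (83.5 and 153 CPM, 0.87) and Cebpa (8.86 and 14.6 CPM, 0.72), and Nr4a3, Mafk (28.4 and 7.25 CPM, -1.97) and Nr4a2 the lowest. Cebpa and Cebpd stand in both lists. In macrophages 1 of 16 was higher and 2 were lower. Of 12 genes associated with Maf, 10 were tested, with 6 higher and 1 lower and a median of 1.13. The scavenger receptor gene Stab1 (31.9 and 434 CPM, 3.77), Folr2 (46.1 and 226 CPM, 2.29) and the chemokine gene Pf4 (252 and 1217 CPM, 2.27) were highest, and Cd163 (37.6 and 13.3 CPM) was the 1 that was lower. Within macrophages 1 of 10 was higher (Stab1, 2.57) and 1 was lower (Cd163, 118 and 14.96 CPM, -2.98), with a median of 0.26. Of 12 genes known as PU.1 targets, 0 were 2-fold higher and 2 were lower over all cells and in macrophages, the NADPH oxidase gene Cybb (-1.40 over all cells) and the perforin-like gene Mpeg1 (-1.18). Csf1r, the receptor for the main macrophage growth factor, was at 435 and 767 CPM (0.82).

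Of 11 genes of patrolling monocytes, a list that Nr4a1 is known for, 10 were in the matrix and 6 were tested over all cells. None of the 6 was higher, 3 were 2-fold lower, and the median was -1.42. In macrophages 5 of 6 were lower, with Treml4 at 52.0 CPM in NTT and 7.39 CPM in RTT (-2.81), Spn at 77.3 and 12.5 CPM (-2.63) and the integrin gene Itgal at 61.9 and 14.3 CPM (-2.12). Among all 8888 genes tested in macrophages, 6.18% were 2-fold lower. The macrophage populations differed, with 5 of 6 lower in TAM_cycling and 1 of 3 in TAM_Spp1, where the median was -0.24. In monocytes 3 were tested and 0 were 2-fold different, with a median of -0.46.

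Nr4a1, Klf4, Id2, Id3, Bhlhe40 and Cebpb can be induced while tissue is dissociated with enzymes, so immediate-early and heat shock genes were read beside them. Of 20, 19 were tested over all cells, with 11 lower and 0 higher by 2-fold and a median of -1.09. Dusp2 (73.0 CPM NTT, 13.3 CPM RTT, -2.45), Hspa1b (133 and 27.5 CPM, -2.28) and Dusp1 (337 and 93.3 CPM, -1.85) were lowest, whereas Jun (272 and 325 CPM, 0.26) and Hspa8 (2488 and 3195 CPM, 0.36) were higher. In monocytes 2 of 18 were lower, in macrophages 6 of 19 and in TAM_Spp1 9 of 18, with 0 higher in each. In TAM_cycling, where Maf, Klf4 and Cebpb were higher, 3 of 18 were higher and 1 was lower (Dusp2), with a median of 0.68. The 3 were Fosb (3.69 CPM NTT, 30.4 CPM RTT, 3.05), Hspa1a (6.32 and 23.8 CPM, 1.91) and Hspa1b (7.90 and 16.9 CPM, 1.10). In dendritic cells 2 of 17 were higher, Egr1 (30.8 and 85.4 CPM, 1.47) and Fosb (20.7 and 60.5 CPM, 1.55), and 1 was lower. The part of these genes in the ratios of the 9 factors was not tested.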

How the data were processed

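Live CD45+ cells of 1 NTT and 1 RTT tumour were read as 3′ libraries. Per the labels and methods, the authors mapped reads to mm10 and counted UMIs with Cell Ranger 6.1.1, kept cells passing limits on genes, mitochondrial and ribosomal content, kept genes shared by their experiments and named populations on a joint map. The deposited counts are raw UMI counts of 12584 genes in 7815 cells, and per-cell totals matched the authors' table in all 7815. Ly6c2 and Cx3cr1 are not analysed here.

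Counts were summed per population and library and scaled to CPM. Exact Poisson intervals were given for levels, exact binomial intervals for ratios, Clopper-Pearson intervals for shares and Newcombe intervals for differences of shares, all at 95% and for counting error only. With 1 library per group there was no test. A ratio was called past 2-fold, among genes with at least 500 UMIs over all cells or 200 UMIs in a class or population. A ratio against 0 UMIs used a floor of 3 UMIs in the library. Depth was 19634099 UMIs in NTT and 44712071 in RTT. The members and lists were chosen with earlier results of these data known. Text names all members, the 3 genes most like each, and at most the 3 largest ratios each way of a list. Doublets were not removed, since Scrublet (scanpy 1.11.5) marked 0 cells. Alternatives were edgeR 4.0.16 and DESeq2 1.42.0 scaling, per-cell means, thinning, filters on cells and other weights. Python 3.11.15 and R 4.3.3 were used, and the calculations were tested on simulated data. Values of some listed genes are not reported here.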

Additional observations from a re-analysis of the deposited data

Results flagged for a closer look

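Maf, Zeb2 and Cebpb had ratios that pointed in opposite directions in different populations, each by at least 1.5-fold and with intervals that excluded 0. Maf had a log2 ratio of 2.96 in DC3, where it rested on 5 NTT and 14 RTT UMIs, and of -0.82 in TAM_Spp1. Zeb2 had a log2 ratio of 0.65 in NK_cells, on 85 and 37 UMIs, and of -0.83 in TAM_Spp1. Cebpb had a log2 ratio of 1.06 in NK_cells and of -0.95 in cDC1, on 95 and 31 UMIs. The differences between populations were not tested, since each group is 1 library.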

How the results depend on the processing

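No paired analysis was possible because each group is 1 library. Over all cells, 3 or 4 of the 9 factors were past 2-fold under each setting tried. In monocytes the count of 2 became 1 with each cell weighted equally, 4 in cells with at least 1500 genes, 0 after thinning to 2000 UMIs, 1 without cells with C1qa at 1000 CPM or more, and 4 with populations weighted equally. In macrophages the count of 1 became 3 with each cell weighted equally, after thinning, with populations weighted equally and without Ctsk_Macro and TAM_cycling. The share of all genes past 2-fold was computed for the reported ratios only, so counts under the other settings have no background. The log2 ratio of Maf turned in monocytes to -0.12 with each cell weighted equally, -0.038 after thinning and -0.86 without C1qa-rich cells, and in macrophages to -0.27, -0.22 after thinning and -0.087 without Ctsk_Macro and TAM_cycling. Spi1 turned to 0.15 in monocytes without C1qa-rich cells, and in macrophages to 0.064 with each cell weighted equally, 0.11 after thinning and 0.071 with populations weighted equally. Cebpb turned to 0.022 in macrophages with at least 1500 genes. The difference of shares turned to 2.16 points for Cebpb without thinning and to -0.33 points for Spi1 at 1000 UMIs, and the part of the Spi1 difference from shares to -346% with NTT weights. Of the 27 most alike genes, 17 were shared with a pseudocount of 1 CPM, 7 with RTT groups alone and 13 with NTT groups alone. The cause of these changes was not tested. Over classes and settings, 213 log2 ratios stayed within the interval of the reported ratio, 64 moved beyond it in the same direction or from an interval that included 0, and 11 turned. Leaving out doublets marked by Scrublet was not run, because it marked 0 cells. Leaving out the 5% of cells with the highest scores and leaving out Neutro, Myofibrobl and Mast cells were chosen after seeing the data, and moved 1 and 3 ratios beyond their interval, with 0 turned. Within populations, 43 of 72 pairs of a factor and a population reached 200 UMIs, which depth and the number of cells both limit.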

Other observations

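Populations with under 50 cells in a library entered no comparison of populations, and their values are given with counting error only. Id3 was at 1425 CPM in the 14 NTT Myofibrobl cells (1223 to 1650.2) and 422 CPM in the 24 RTT cells (357 to 496), above every population of the report. In the 11 NTT cells named Monocyte_3, Nr4a1 was at 347 CPM (13 UMIs), Id3 at 320.4 CPM (12 UMIs) and Zeb2 at 1175 CPM. The 17 NTT cells named TAM_C1q had Zeb2 at 991 CPM and Cebpb at 343 CPM. The 26 RTT cells named Macro had Klf4 at 223 CPM (38 UMIs, 12 of them in 1 cell) and Cebpb at 1103 CPM.

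The 29 RTT cells named Neutro were of 2 kinds. The 15 with C1qa at 1000 CPM or more had Maf at 995 CPM, Cebpb at 1405 CPM and Nr4a1 at 84.3 CPM. The other 14 had 0 Maf UMIs, which allows up to 101 CPM, with Cebpb at 5687 CPM and Nr4a1 at 1126 CPM. The 78 NTT Neutro cells without C1qa at that level had Maf at 92.7 CPM, Cebpb at 4918 CPM and Nr4a1 at 360 CPM.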
